A study of Mus musculus with 2 samples.

Results

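Sox9 and 6 genes that flank it on mouse chromosome 11 (Map2k6, Kcnj16 and Kcnj2 on the side of lower coordinates, and Slc39a11, Sstr2 and Cog1 on the other side) were followed in prostaspheres, which are spheres that prostate epithelial cells form in culture. Every spot other than a control spot that the array design names for one of these 7 genes was taken, which gave 13 probes on 22 spots of each array. The array design holds 27827 gene names in all. The 7 genes were chosen by their position, though with earlier results of these data known.

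RNA was hybridized to 2 Agilent whole mouse arrays, each with 2 RNAs. Cells came from the urogenital sinus (UGS) epithelium of embryos at 16 days post conception (dpc) on a C57/Bl6J background, per the deposited labels, whereas the study's methods describe adult prostate for the sphere assay. In ERCre+/+Sox9flox/flox cells the Sox9 alleles are floxed and are cut by a Cre, expressed from Rosa26 and so not limited to a cell type, once tamoxifen (TAM) is given. All RNAs came from spheres kept in Matrigel for 6 days with dihydrotestosterone and then for 6 days with 5 µM TAM or with vehicle. On the genotype array, wild-type cells with TAM (Cy5) were set against floxed cells with TAM (Cy3). On the treatment array, floxed cells with vehicle (Cy5) were set against floxed cells with TAM (Cy3). The floxed cells with TAM are called Sox9-deleted here and the other RNAs Sox9-expressing, after the titles and treatments. The genotype label reads Sox9 null also for the vehicle RNA, and the source names call each Cy5 RNA SOX9 and each Cy3 RNA Ctrl, which read as the deleted gene would turn every sign given below. Each array is 1 hybridization of its own comparison, so the tests treat the 2 arrays as replicates (n = 2) of expressing against deleted. Genotype and TAM exposure differ between the arrays, and the dyes were not swapped, so a dye effect on a probe and a response to Sox9 cannot be told apart. How many mice each RNA came from is not given in the sources used here.

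Sox9 is a transcription factor of the SoxE group that binds DNA through a high mobility group box. It directs testis determination and cartilage formation, and it marks progenitor cells in several epithelia. It lies in a gene desert, a long stretch with few genes that holds distant enhancers of Sox9. The flanking genes have other functions. Kcnj2 and Kcnj16 encode inward rectifier potassium channels, Map2k6 a kinase that activates p38 MAP kinases, Slc39a11 a zinc transporter of the ZIP family, Sstr2 a receptor for somatostatin, and Cog1 a subunit of the COG complex of the Golgi apparatus.

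The probes that carry the result on Sox9 read different stretches of 1 mRNA, and their sequences and places are therefore shown. Coordinates are those of the array design, for which the file headers name the build mm9. All 3 probes are on the plus strand. The proximal probe is 60 bases long but covers 853 bases of the genome (chr11:112644310-112645162), so it joins 2 exons across an intron of 793 bases. Its first base lies at position 786 of the mRNA. The brightest probe (chr11:112647008-112647067) begins at position 2082 of the mRNA and the distal probe (chr11:112648809-112648868) at position 3883. For these last 2 probes the first 30 bases are given.
Sox9 proximal probe: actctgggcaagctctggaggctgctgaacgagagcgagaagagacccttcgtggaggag
Sox9 brightest probe, start: ttccaggagagagactttaagactttgtct
Sox9 distal probe, start: ataaaaccttaaagcgttcttataatatgg
Of 60 bases, G and C make up 36 in the proximal probe, 26 in the brightest and 18 in the distal probe. Which part of Sox9 is floxed is not given in the sources used here, so whether a probe lies inside the deleted part is not known, and a probe outside it does not check the deletion.

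Sox9 was higher in Sox9-expressing than in Sox9-deleted RNA of each array by 2 of its 3 probes, and lower by the third. On the scanner's scale, after subtraction of the local background, the brightest probe read 2199 in wild-type cells with TAM and 1476 in floxed cells with vehicle. In the Sox9-deleted RNA it read 105.01 on the genotype array and 115 on the treatment array. The Sox9-deleted RNAs were still well above background on both arrays, where 95% of negative control spots in Cy3 read at most 10.55 and 10.03. Cy3 and Cy5 readings are not on 1 scale before normalization, so these readings give no fold. After background correction with a constant of 50 added (normexp) and loess normalization within each array, the log2 ratio of expressing over deleted RNA was 2.69 on the genotype array and 2.37 on the treatment array. The mean over both, 2.53 ± 0.23 (SD, n = 2), is a 5.78-fold difference, larger than the spread between arrays. limma gave an unadjusted p of 3.3e-05 and a Benjamini-Hochberg adjusted p of 0.0591 over 22731 probes, which missed 0.05. Of all tested probes, 4 had a higher mean log2 ratio.

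The proximal probe, which spans the intron, went the same way from dimmer signals. It read 313 in wild-type cells with TAM and 186 in floxed cells with vehicle, against 25.7 and 19.2 in the Sox9-deleted RNA of the same arrays. Its log2 ratios were 1.18 and 1.27, averaging 1.22 ± 0.07 (SD, n = 2, adjusted p by limma = 0.0824). The constant of 50 holds back the ratio of dim probes. With a constant of 10 the mean log2 ratio was 1.76, and by the scanner software's own log ratio it was 3.18.

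The distal probe went against the other probes and against the labels. It is printed on 10 spots of each array, of which 8 on the genotype array and 6 on the treatment array were kept after outlier spots had been left out. In the Sox9-deleted RNA the kept spots read 97.5 to 110.4 on the genotype array and 99.4 to 104.1 on the treatment array. In wild-type cells with TAM they read 1.05 to 11.6, where 0 of 10 spots were well above background, and in floxed cells with vehicle 31.7 to 39.0, where 10 of 10 were. The kept spots of each RNA thus lay close together, partly because outlier spots had been left out. The log2 ratio was -0.997 on the genotype array, with an SD of 0.04 between kept spots, and -1.22 on the treatment array, with an SD of 0.04. Over all 10 spots it was -0.995 with an SD of 0.08 on the genotype array. On the treatment array it was -1.25 with an SD of 0.11. The mean was -1.11 ± 0.16 (SD, n = 2, limma adjusted p = 0.0883), which is 2.16-fold lower in expressing RNA, and 32 tested probes were lower. The order of the 2 arrays depended on the processing. By the scanner's log ratio the genotype array was the lower one, at -5.85 against -2.63. Because this probe was well above background in Sox9-expressing RNA on 1 of 2 arrays, the size of its difference is uncertain.

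**Figure D1:**
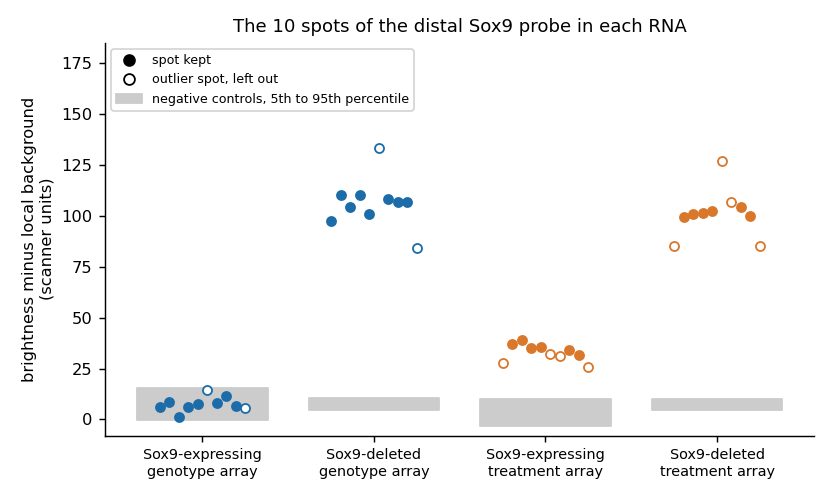
Brightness minus local background, in scanner units, of the 10 spots of the distal Sox9 probe in each of the 4 RNAs. Filled points are kept spots, open points are outlier spots that were left out, and grey bands are the 5th to 95th percentile of negative control spots; the Sox9-deleted spots lie far above the band on both arrays, while the Sox9-expressing spots lie in the band on the genotype array and a little above it on the treatment array.

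Of 5536 genes with at least 2 tested probes, 1 had a probe with a mean log2 ratio of at least 1 and another at or below -1, and that gene was Sox9. By the stricter rule of 2-fold on each array, 0 genes had a probe higher and another lower, since the distal probe missed it on the genotype array, where the expressing RNA did not read well above background. The Sox9 probes covered a range of 3.64 on the log2 scale. With the 3 probes averaged, the log2 ratio was 0.88 (limma adjusted p = 0.0896). An opposite-strand transcript, BI793804, has a probe (chr11:112648887-112648946, minus strand) just beyond the distal Sox9 probe, and it was not well above background in any of the 4 RNAs.

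Levels of each RNA could be set side by side for 1 probe at a time, after quantile normalization of the mean brightness between the arrays. By the brightest Sox9 probe the order on the log2 scale was wild type with TAM at 10.67, floxed with vehicle at 10.23, and the Sox9-deleted RNAs at 7.98 and 7.86. The Sox9-deleted RNAs, which are the 1 kind of RNA measured on both arrays, differed by 0.12, and the Sox9-expressing RNAs by 0.45. With 1 measurement each, whether wild-type and vehicle-treated cells differ in Sox9 could not be tested. The proximal probe gave the same order, with levels of 8.21, 7.93, 7.04 and 6.66, and its deleted RNAs differed by 0.38. At the distal probe the order was turned, with 6.73 and 6.59 in the expressing RNAs and 7.72 and 7.81 in the deleted RNAs.

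**Figure D2:**
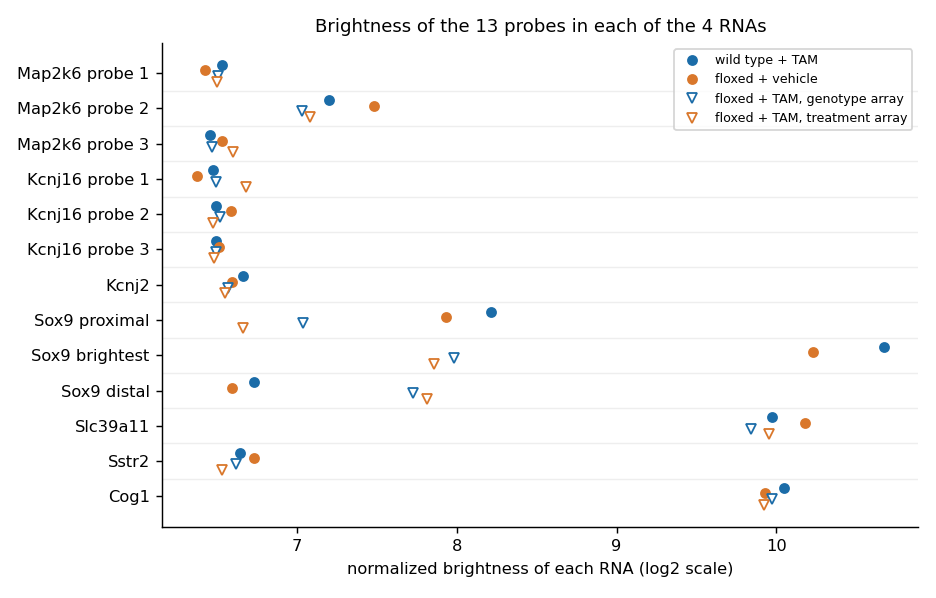
Normalized brightness on a log2 scale (horizontal axis) of each of the 13 probes (rows, in chromosome order) in the 4 RNAs. Filled circles are Sox9-expressing and open triangles Sox9-deleted RNAs, with the genotype array in blue and the treatment array in orange; the expressing and deleted RNAs stand farthest apart at the 3 Sox9 probes, and levels of different probes are not comparable.

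Markers of other cell types differed on these arrays as well. The basal cell markers Krt5, Krt14 and Trp63 all passed 2-fold on each array, higher with Sox9, against 0.535% of all tested genes in either direction. Their mean log2 ratios were 2.02, 1.96 and 1.60, and the second tested probe of Trp63 stood at 0.52. Their summed normalized brightness was 238831 and 201552 in the expressing RNAs against 55966 and 54741 in the deleted RNAs. Of the luminal list 3 genes were tested, and their summed normalized brightness was 142327 and 109100 in the expressing RNAs against 153703 and 196988 in the deleted RNAs. The luminal keratins Krt18 and Krt8 had log2 ratios of -0.28 and 0.01 on the genotype array and of -1.01 and -0.74 on the treatment array. The second tested probe of Krt8 was lower on both arrays, at -0.42 on the genotype array and -1.05 on the treatment array. In bulk RNA, fewer cells of a type and less RNA per cell cannot be told apart, and the part of basal or luminal cells in the Sox9 values was not tested. The epithelial markers Cdh1 and Epcam were well above background, with mean log2 ratios of -0.32 and 0.42. All 6 stromal markers and the 3 tested of 4 skeletal muscle markers were lower on the genotype array and higher on the treatment array in expressing RNA. Over all tested genes, 4900 of 15131 went opposite ways on the 2 arrays, in either order. Of the immune markers 1 of 3 was tested, Cd68, at -0.73, and of the neuroendocrine markers 0 of 2.

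Of the 6 flanking genes 3 could be tested, Map2k6, Slc39a11 and Cog1, and their differences were small, with mean log2 ratios between 0.04 and 0.29 and adjusted p of at least 0.264 by limma. Of the 13 probes, 6 passed the filter, which asks that 1 dye read well above background on each of the 2 arrays, and these were the 3 Sox9 probes and 1 probe each of Map2k6, Slc39a11 and Cog1. At an adjusted p under 0.05 limma called 0 of these 6, against 0.0088% of all tested probes. At an unadjusted p under 0.05 it called all 3 Sox9 probes and 1 of the 3 neighbour probes, against 17.6% of all tested probes. Of the 6 probes, 3 were both called and higher in expressing RNA, against 9.5% of all tested probes. Of these 3, 2 read Sox9, the gene deleted by design, and 1 reads Map2k6. Among all 3990 probes called at this threshold, 2160 were higher. A difference of at least 2-fold, the same way on each array, was seen for 2 of the 6, both Sox9 and both higher, against 0.29% of all tested probes in that direction. Of the 6 probes 5 were higher on both arrays, against 34.6% of all tested probes, and 1 was lower on both, against 32.6%.

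**Figure D3:**
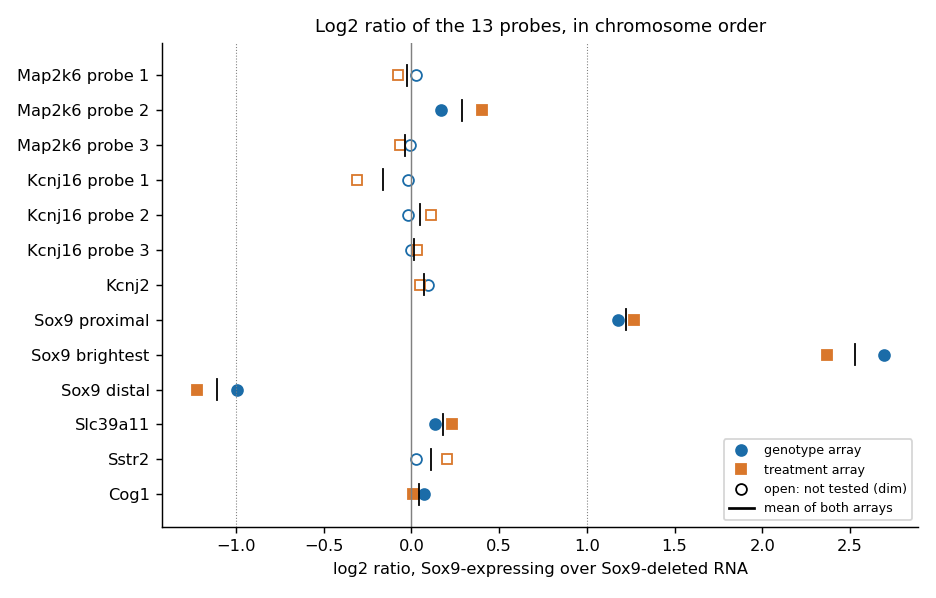
Log2 ratio of Sox9-expressing over Sox9-deleted RNA (horizontal axis) for the 13 probes in chromosome order (rows), with circles for the genotype array, squares for the treatment array and a bar for their mean. Open symbols are probes too dim to be tested; the Sox9 means lie at 1.22, 2.53 and -1.11, while the neighbours lie between -0.16 and 0.29.

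Map2k6, the kinase that activates p38, lies 2.27 Mb from Sox9. Its brightest probe (chr11:110374803-110374862) read 88.9 in wild-type cells with TAM and 119 in floxed cells with vehicle, against 34.8 and 41.8 in the Sox9-deleted RNA. The log2 ratios were 0.17 and 0.40. The mean of 0.29 ± 0.16 (SD, n = 2) had an unadjusted p of 0.0405 and an adjusted p of 0.264 by limma, a 1.22-fold difference. The other 2 probes of Map2k6 were not well above background in any RNA, with means of -0.03 and -0.04.

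Slc39a11, the ZIP zinc transporter, is the nearest of these genes with a tested probe (chr11:113106237-113106296, minus strand), 462 kb from Sox9. The probe read 1263 and 1506 in the expressing RNAs and 590 and 660 in the deleted RNAs. This bright signal gave log2 ratios near 0 after normalization, 0.13 and 0.23, averaging 0.18 ± 0.07 (SD, n = 2, adjusted p by limma = 0.335). Cog1, the Golgi subunit, has a probe across an intron (chr11:113520665-113522289) 876 kb from Sox9. It read 1340 and 1253 in the expressing RNAs and 655 and 647 in the deleted RNAs. Its log2 ratios of 0.07 and 0.01 averaged 0.04 ± 0.05 (SD, n = 2, adjusted p by limma = 0.801). Cog1 thus had the mean nearest to 0 of the 6 tested probes and was at nearly the same level in all 4 RNAs, between 9.92 and 10.05 on the normalized log2 scale.

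Kcnj2, Kcnj16 and Sstr2 were not well above background in any of the 4 RNAs, by any of their 5 probes. The Kcnj2 probe (chr11:110936203-110936262), 1.71 Mb from Sox9, read 26.0 and 13.8 in the expressing RNAs and 11.3 and 12 in the deleted RNAs. The 3 Kcnj16 probes, 1.76 Mb from Sox9, read between 1.75 and 17.6 over all RNAs. The Sstr2 probe (chr11:113486976-113487035) read 21.9 and 23.6 in the expressing RNAs and 14.7 and 11.6 in the deleted RNAs. Negative control spots had 95th percentiles of 15.6 and 9.84 in Cy5, so some of these readings exceeded them while the scanner software did not mark them as well above background. Because neither RNA of either array was well above background, no fold is given for these genes, and a difference was not detectable at this signal. Sstr2 lies within the span of Slc39a11 on the other strand in the RefSeq annotation.

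Outside the named genes, 1 gene close to Sox9 was at least 2-fold higher in expressing RNA on each array. It is 2610035D17Rik, a long noncoding RNA that RefSeq places between Sox9 and Slc39a11, beyond other noncoding genes and on the strand opposite to Sox9, so that both genes are transcribed toward each other. Its only probe (chr11:112905507-112905566, minus strand, mm9) lies 261 kb from the lowest Sox9 probe and is shown in full because it carries this result.
2610035D17Rik probe: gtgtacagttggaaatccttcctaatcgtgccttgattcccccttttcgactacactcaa
The probe read 1039 in wild-type cells with TAM and 1012 in floxed cells with vehicle, against 145 and 155 in the Sox9-deleted RNA. All 4 RNAs were well above background. The log2 ratios of 1.45 and 1.54 gave a mean of 1.496 ± 0.07 (SD, n = 2), a 2.82-fold difference, with an unadjusted p of 5.9e-05 and an adjusted p of 0.0704 by limma. Of 1247 tested genes on chromosome 11, 4 had a higher mean, Sox9 among them. On the normalized log2 scale wild type with TAM stood at 9.68 and floxed with vehicle at 9.72, and the Sox9-deleted RNAs at 8.23 and 8.17.

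The promoter of 2610035D17Rik was searched for the letters AACAAT and ACAAAG, which are core forms of the motif that Sox proteins bind, on both strands. RefSeq (GRCm38.p6) gives its window of 250 bases before to 50 after the start as chr11:113201789-113202088, minus strand. It holds ACAAAG once, shown in capitals, and AACAAT not at all.
2610035D17Rik promoter: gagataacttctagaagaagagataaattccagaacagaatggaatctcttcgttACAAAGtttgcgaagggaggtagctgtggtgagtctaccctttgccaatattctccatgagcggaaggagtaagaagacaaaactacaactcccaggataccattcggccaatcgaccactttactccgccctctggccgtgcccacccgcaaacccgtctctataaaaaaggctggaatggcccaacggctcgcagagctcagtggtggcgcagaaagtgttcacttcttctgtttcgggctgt
Of 32851 promoter windows of this length, 18.7% hold ACAAAG and 10.7% hold AACAAT. The table lists windows for 6 of the 7 genes, and of these Map2k6 has 1 match to each motif, in different windows, and the others have none. A match to so few letters is a description of the window and not a binding site.

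The rest of the region gave small differences. Within 3 Mb to each side of Sox9 the array holds 67 other genes with a position, of which 36 were tested. A difference of at least 2-fold, the same way on each array, was seen for 1 of them, 2610035D17Rik, against 0.535% of all tested genes. Of the 36 genes 8 were higher and 15 lower on both arrays, against 33.8% of all tested genes in each direction, and their median log2 ratio was -0.02, beside 0.0031 over all tested genes. At an unadjusted p under 0.05 limma called 4 of 36, against 19.5% of all tested genes. Besides 2610035D17Rik these included Rpl38, a ribosomal protein of the large subunit, with a mean log2 ratio of 0.45 (1.01 with median centring and 0.19 by the scanner's log ratio), and Slc9a3r1, a scaffold protein of epithelial membranes, at -0.37. Slc9a3r1 was the lowest of the region.

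The tested gene nearest to Sox9, 4933434M16Rik, 42.7 kb away, was marked well above background in the Sox9-deleted RNAs only, so no ratio is given for it. It read 17.1 and 12.8 in the expressing RNAs against 22.1 and 19.2 in the deleted RNAs. The readings were low in every RNA, so the mark does not show that it was present in deleted cells alone. On the side of lower coordinates 4 probes lie within 1 Mb of Sox9, and 0 of them were well above background in any RNA. Signal within 1 Mb was thus measured on one side of Sox9 alone.

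**Figure D4:**
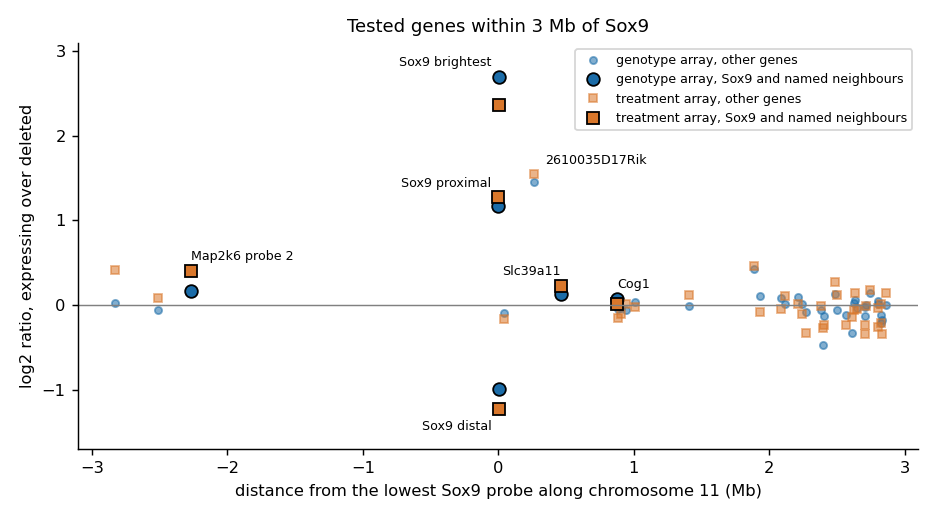
Log2 ratio of Sox9-expressing over Sox9-deleted RNA (vertical axis) against distance from the lowest Sox9 probe in Mb (horizontal axis) for the tested genes within 3 Mb, with circles for the genotype array and squares for the treatment array. Larger outlined symbols are the Sox9 probes and the tested named neighbours; apart from Sox9, 2610035D17Rik at 1.45 and 1.54 is the 1 gene beyond 1 on both arrays.

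The families of the flanking genes were set beside them, since their members share a function and lie elsewhere in the genome. Among the other MAP kinase kinases all 6 on the array were tested, and 0 of 6 had an unadjusted p under 0.05, against 19.5% of all tested genes. Their mean log2 ratios lay between -0.16 for Map2k1, which acts in the Erk pathway and stood at 0.16 with median centring, and 0.07 for Map2k7, which acts on JNK. Map2k3, another kinase that acts on p38, stood at -0.06. The median was -0.08.

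The kinases and phosphatases around p38 gave larger differences. All 10 genes listed were tested, and 8 were lower and 1 was higher in expressing RNA on both arrays, against 33.8% of all tested genes in each direction. Of the 10, 6 had an unadjusted p under 0.05, against 19.5% of all tested genes, and 0 an adjusted p under 0.05. Dusp1, a phosphatase that switches MAP kinases off and an early response gene, had the lowest mean, -0.72 ± 0.02 (SD, n = 2, limma adjusted p = 0.0952). Dusp10, a phosphatase of p38 and JNK, stood at -0.56, and the p38 isoforms Mapk12 and Mapk11 at -0.54 and -0.37. Mapkapk2, a kinase that p38 activates, stood at -0.26 and at 0.07 with median centring, and its other tested probe at 0.13. The main p38 isoform, Mapk14, was the highest at 0.29 ± 0.03 (SD, n = 2, limma adjusted p = 0.205). The median of the list was -0.23, and 0.11 with median centring, so the direction of the list as a whole depended on the scaling.

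Of 12 other inward rectifier genes 3 were tested, and all 3 had an unadjusted p under 0.05, against 19.5% of all tested genes. Kcnj15 read 257 and 293 in the expressing RNAs against 48.4 and 53.7 in the deleted RNAs, and its log2 ratios of 0.73 and 1.08 had a mean of 0.90 (limma adjusted p = 0.114). Kcnj8, a subunit of potassium channels that ATP closes, stood at -0.47 and Kcnj4 at -0.31. The second tested probes of Kcnj15, Kcnj8 and Kcnj4 stood nearer 0, at 0.46, -0.07 and -0.03.

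Of 13 other ZIP zinc transporters 11 were tested, and 6 were higher and 3 lower on both arrays, against 33.8% of all tested genes in each direction, with a median of 0.09. Slc39a8, which brings zinc and manganese into cells, read 746 and 935 in the expressing RNAs against 200 and 204 in the deleted RNAs. Its log2 ratios of 0.73 and 1.11 had a mean of 0.92 (limma adjusted p = 0.118), the highest of the family, while its second tested probe stood at 0.28. Slc39a7, which releases zinc from the endoplasmic reticulum, was the lowest at -0.29, and stood at 0.14 with median centring.

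The other COG subunits resembled Cog1 in their small differences. Of 7 on the array 6 were tested, with means between -0.06 for Cog2, which stood at 0.04 with median centring, and 0.14 for Cog4. Of these, 0 of 6 had an unadjusted p under 0.05, against 19.5% of all tested genes. Of the 5 other genes of the somatostatin system, which are ligands and receptors, 0 were tested. Of the SoxE relatives of Sox9, Sox8 was not tested. Sox10 was marked well above background in the Sox9-deleted RNAs only, so no ratio is given. Its tested probe read 17.6 and 15.5 in the expressing RNAs against 18.9 and 18.6 in the deleted RNAs. The readings were low in every RNA, so the mark does not show that Sox10 was present in deleted cells alone.

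The genes whose values on both arrays lay nearest to those of the brightest Sox9 probe, by Euclidean distance over the 2 log2 ratios, were Col17a1 at a distance of 0.34, Expi at 0.57, the transcript ENSMUST00000088270 at 0.69, Krt5 at 0.72 and Tgfbi at 0.74. Their values on the genotype and treatment arrays were 2.62 and 2.03 for Col17a1, 2.22 and 2.04 for Expi, and 2.20 and 2.92 for Tgfbi. These are values of the brightest probe of each gene. The second probe of Expi stood at 2.10 and 1.93, and that of Col17a1 lay farther off, at 1.73 and 1.49. None of these genes lies in the region around Sox9.

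The means of the 6 tested probes kept their direction under the 6 ways of processing plotted here. The mean log2 ratio of the brightest Sox9 probe lay between 2.53 and 3.19, and that of the distal probe between -4.23 and -1.01. Cog1 and Slc39a11 were highest with median centring, at 0.33 and 0.47, where the median of all tested probes was 0.18.

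**Figure D5:**
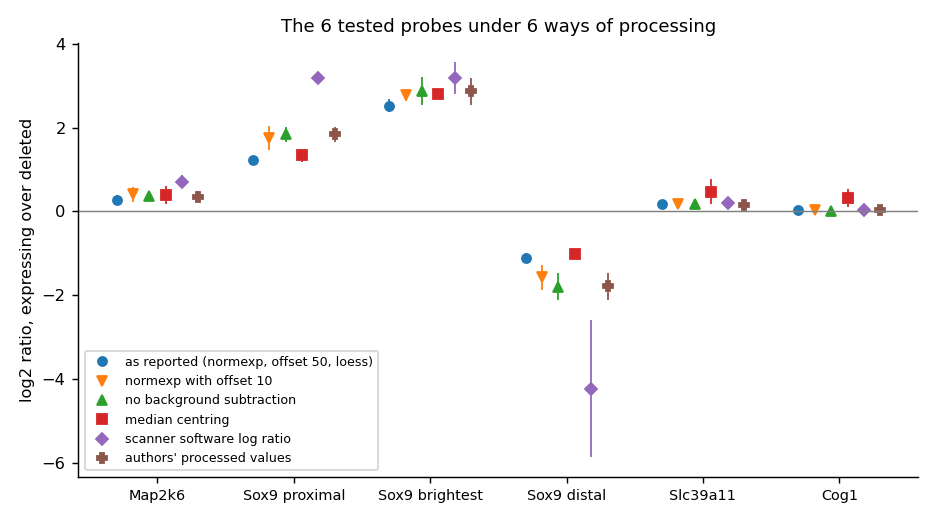
Mean log2 ratio (vertical axis) of the 6 tested probes under 6 ways of processing the same arrays, with lines from the lower to the higher array. The sign of each probe's mean is the same throughout, and the distal Sox9 probe varies most, from -1.01 with median centring to -4.23 by the scanner software's log ratio.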

How the data were processed

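RNA from prostaspheres was measured on 2 two-color arrays of 1 slide, with the RNAs assigned by titles, genotypes, treatments and dyes in the labels. Per the file headers, Agilent Feature Extraction 10.5.1.1 gave the mean intensity and local background intensity of each spot, and the log10 ratio of Cy5 over Cy3 after background subtraction and dye normalization. A further table, of values processed by the authors, behaves as log2 ratios of Cy5 over Cy3. The submitters' processing notes name limma, and its settings are not given in the sources used here.

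From the intensities, limma's normexp (offset 50) corrected the background and loess normalized each array, in limma 3.58.1 in R 4.3.3. Control spots (1639 of 45018) and outlier spots (126 and 130) were left out, and averaging over spots gave 41174 probes. Of these, 22731 read well above background on each array in Cy5, or on each in Cy3, by the software's mark on most spots, and were tested. The mean of the 2 arrays was tested against 0 (lmFit and eBayes, 2-sided, Benjamini-Hochberg), with 1 residual and 2.8 prior degrees of freedom. A gene was read from its brightest tested probe. The probes well above background made up 53.9% to 56.2% of each RNA, and saturated spots numbered 0. Precision is limited by the number of arrays.

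The genes and lists were chosen with earlier results of these data known. Named were every probe of the 7 genes, and in the region and each family the genes at least 2-fold different on both arrays and the highest and lowest. Others among those past an unadjusted p of 0.05, Map2k3, the untested transcripts near Sox9, second probes and the promoter motifs, were chosen after their values were seen. Some genes of the region and of the marker lists are not reported here. The alternatives were an offset of 10, no background subtraction, median centring, the scanner's log ratio, the authors' values, other filters, the methods' t-test, windows of 1 and 5 Mb, the mean over probes, and each array alone. The code was tested on simulated data. Figures were drawn with Python 3.11.15 and matplotlib 3.10.9.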

Additional observations from a re-analysis of the deposited data

Results flagged for a closer look

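The stromal and skeletal muscle marker lists stood apart because all their tested genes moved one way on the genotype array and the other way on the treatment array. This difference between the arrays was not tested. Of all 15131 tested genes, 4900 went opposite ways on the 2 arrays, in either order. The median log2 ratio of the 6 stromal markers was -0.63 on the genotype array and 0.94 on the treatment array. That of the 3 tested skeletal muscle markers was -0.92 and 1.92. Their summed normalized brightness was highest in floxed cells with vehicle, at 78608 for the stromal and 3825 for the muscle markers, and lowest in wild-type cells with TAM, at 27498 and 620. The part of stromal or muscle cells in the Sox9 values was not tested.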

How the results depend on the processing

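The brightest Sox9 probe passed an adjusted p of 0.05 with median centring (mean log2 ratio 2.80, p = 3.4e-21), with the authors' values (2.87, p = 0.0367) and without the filter on dim probes (2.53, p = 0.0469), and the methods' t-test gave an adjusted p of 0.585. Each array alone gave 2.37 to 2.69. The small p by limma with median centring rests on the same 2 arrays, so it was not read as stronger evidence. With that setting the median log2 ratio over all tested probes was still 0.38 on the treatment array. With median centring the proximal (p = 0.00016) and distal (p = 0.0130) Sox9 probes, 2610035D17Rik (p = 5.5e-08), Kcnj15, Rpl38 and Slc39a8 also passed, with the authors' values the proximal probe (p = 0.0422), 2610035D17Rik (p = 0.0367) and Kcnj15 (p = 0.0432), and without the filter 2610035D17Rik (p = 0.0469). limma called 2 probes at an adjusted p under 0.05, and 0 with an offset of 10 (3509 at an unadjusted p under 0.05), with no background subtraction (4331), with the scanner's log ratio (3833) and with the methods' t-test (1930), 522 with median centring, 68 with the authors' values and 21 without the filter. The 95 probes past the 2-fold rule became 148 with no background subtraction, 596 with the scanner's log ratio, 147 with the authors' values, and 298 to 382 on each array alone. The median of the region was -0.035 with an offset of 10, -0.050 with no background subtraction, 0.16 with median centring, -0.047 with the scanner's log ratio, -0.065 with the authors' values, -0.044 and -0.033 over windows of 1 and 5 Mb, and -0.040 to -0.021 on each array alone. With median centring 4 of the tested genes named changed sign, Cog2 to 0.041, Map2k1 to 0.16, Mapkapk2 to 0.069 and Slc39a7 to 0.14, as did the untested Kcnj2 (-0.0074) and Kcnj16 (-0.044), while the median of all tested probes shifted to 0.18. The cause was not tested. Dim signals limit what can be said of Kcnj2, Kcnj16, Sstr2 and the distal Sox9 probe.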
